A study of Bos taurus with 16 samples.

Results

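Blastocysts of cows fed flax seed were set against blastocysts of cows fed sunflower seed, through the canola samples that both had been hybridised with. All 16 of the 16 arrays entered the comparison: 8 set a flax sample (FLX) and 8 a sunflower sample (SUN) against a canola sample (CAN). Each ratio was turned to diet over CAN and averaged with its dye exchange, which gave 4 FLX and 4 SUN replicates. For each replicate number from 1 to 4 the SUN value was then subtracted from the FLX value. The CAN samples of a number carried the same name on both sets of arrays and were assumed to be 1 pool, so that CAN cancelled and 4 paired differences, FLX minus SUN, were left.

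The FLX cows (8 animals) ate rolled flax, rich in α-linolenic acid. The SUN cows (7 animals) ate rolled sunflower seed, rich in linoleic acid, and the CAN cows (8 animals) ate rolled canola, rich in oleic acid. All were dry Holsteins, adapted to their diet for at least 35 days, superovulated with follicle-stimulating hormone and inseminated 2 times, 12 h apart, with semen of 1 sire. Embryos of like stage were pooled per cow, those flushed at day 7.5 that had reached the blastocyst stage were used, and amplified antisense RNA was labelled with Cy3 or Cy5. The labels call the 4 replicates of a diet biological but name no cows for them, so the p-values measure the spread between these samples.

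Linoleic and α-linolenic acid are the plant parents of the omega-6 and omega-3 families of polyunsaturated fatty acids, and animals cannot make either. The same desaturases and elongases lengthen and desaturate both, FADS2 acting first, and the products of the omega-6 branch include arachidonic acid, from which prostaglandins and leukotrienes are made. In many tissues polyunsaturated fatty acids lower the activity of SREBP transcription factors, which drive genes of fatty acid and cholesterol synthesis. A bovine blastocyst has an outer trophectoderm, which secretes interferon tau to signal pregnancy to the mother, and an inner cell mass with epiblast and hypoblast.

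Values are log2 ratios as the authors deposited them, with base 2 assumed. Cy5 over Cy3 is the likely direction, by convention and because the array listed first for a replicate has its diet sample in Cy5. If the ratio ran the other way, every sign given here turns. FLX samples lay on slides 1 and 2 and SUN samples on slides 3 and 4, so slide and diet cannot be told apart. Ratios give no level, so neither signal over background nor the presence of blastocyst markers could be checked.

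Replicates of the same number deviated together. Their deviations from the diet means correlated at 0.41 to 0.576 over all probes, against −0.305 to 0.005 between different numbers, and pairing by number rests on this. Deviations from a diet mean cancel out, which by itself lowers the correlations between different numbers. The ratios themselves correlated between FLX and SUN at 0.328 to 0.565 for the same number and −0.172 to 0.174 for different numbers. Among the SUN replicates, 2 and 3 stood apart. The SUN replicate 2 arrays had the widest spread (SD up to 0.435, against 0.233 on the narrowest array). SUN replicate 3 correlated at −0.244, −0.266 and −0.244 with the other SUN replicates, which correlated with each other at 0.193 to 0.3. FLX replicates correlated with each other at −0.264 (replicates 1 and 4) to 0.0482 (replicates 2 and 4). The paired differences had SDs over probes of 0.307, 0.312, 0.264 and 0.236 for numbers 1 to 4. They correlated with each other at −0.114 to 0.275, highest between numbers 1 and 2. An array and its dye exchange, both turned to diet over CAN, correlated at 0.165 (SUN replicate 1) to 0.616 (FLX replicate 2). FLX replicate 4 was at 0.274 and SUN replicate 4 at 0.298, so dye exchanges agreed only in part. All of these are correlations across probes, which are not independent replicates.

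No single gene or probe separated FLX from SUN embryos past a false discovery rate (FDR) of 0.05. limma called 0 of 43794 probes (lowest adjusted p = 0.885) and 0 of 15216 genes (lowest adjusted p = 0.840). At an unadjusted p under 0.05 it counted 2326 probes (5.31%), against 2190 expected by chance, 970 higher in FLX (2.21%) and 1356 lower (3.1%). Of these, 169 reached 1.5-fold, 26 higher and 143 lower in FLX, but without number 4 the split was 302 higher and 242 lower. Among genes 853 (5.61%) had an unadjusted p under 0.05, against 760.8 expected, with 314 higher (2.06%) and 539 lower (3.54%). More of these lay on the FLX-lower side, though the median over all genes was −0.0029.

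**Figure D1:**
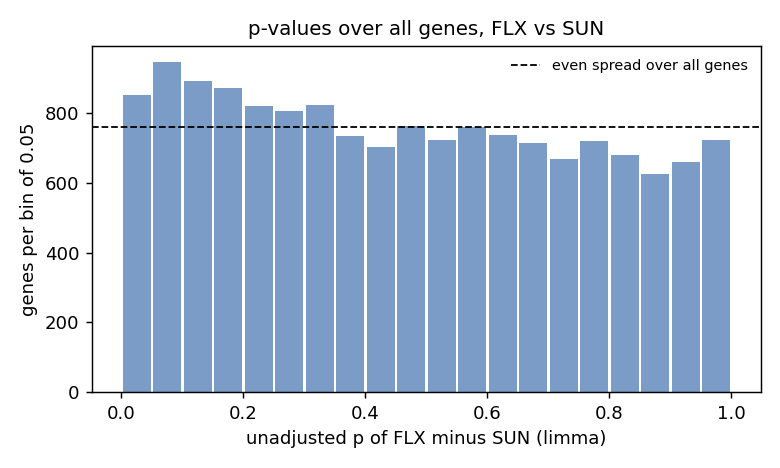
Number of genes (y axis) per bin of 0.05 of the unadjusted p of FLX minus SUN (x axis). The dashed line is an even spread over all genes, 760.8 a bin. The lowest bin holds 853 genes, below the 945 of the bin beside it.

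The precision can be given as an interval. The median 95% interval of a gene's difference reached 0.208 log2 units either side, or 1.155-fold, and the 5th and 95th percentiles of gene differences were −0.242 and 0.204. Differences of 2-fold or more were seen for 12 genes (0.0789%). All 4 numbers gave a higher FLX value for 976 genes (6.41%) and a lower one for 1077 (7.08%). The 4 FLX values lay wholly above the 4 SUN values for 144 genes (0.946%) and wholly below for 137 (0.9%). The interval above is not adjusted for the number of genes. No gene passed the FDR, among them NANOG at 2.71-fold and the gene of largest difference, 1.73 log2 units in size.

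Among probes whose 4 paired differences shared a sign, the 12 of smallest p on each side were named. None passed (adjusted p = 0.885 in limma for each of the 24). All share a sign over the 4 numbers by the way they were chosen. KIT, the receptor of stem cell factor on chromosome 6, stood over CAN at 0.45, 0.39, 0.35 and 0.30 in FLX replicates 1 to 4, against 0.066, −0.19, −0.22 and −0.42 in SUN replicates 1 to 4. The groups did not overlap, and the mean difference was 0.56 ± 0.14 (SD, n = 4 here and below; 1.48-fold). Its other 2 probes were also positive but smaller, at 0.020 and 0.34, and the gene-level difference was 0.31 ± 0.09.

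TEX12, a protein of the synaptonemal complex of meiosis, stood at 0.44, 0.60, 0.54 and 0.32 in FLX, against −0.36, −0.40, −0.42 and 0.042 in SUN. FLX was above SUN throughout, by 0.76 ± 0.33, but its other 2 probes stood at −0.097 and 0.017. C7H1orf35, whose role is not given here, likewise did not overlap, at 0.43 ± 0.05, with its other 2 probes slightly negative (−0.11 and −0.018). CDH26, a cadherin measured by 1 probe, had the largest mean difference of the higher probes, 1.01 ± 0.52, with SUN replicate 2 lowest at −2.32. DST, a linker of the cytoskeleton, stood at 0.78 ± 0.38, RND3 at 0.71 ± 0.30 and NET1 at 0.57 ± 0.19. TXNIP, the inhibitor of thioredoxin that also restrains glucose uptake, stood at 0.67 ± 0.32 on this probe and between −0.041 and 0.026 on its other 3. SLC2A6, a sugar transporter, stood at 0.54 ± 0.12 with its other probe at −0.0059. ZMYM1, KCTD3 and DENND5B completed the higher side at 0.53 ± 0.19, 0.46 ± 0.11 and 0.49 ± 0.19. KCTD3 was at 0.77 with CAN in Cy3 and 0.14 with CAN in Cy5.

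On the lower side MYL6, the light chain of non-muscle and smooth muscle myosin on chromosome 5, was the best covered gene. Its probe of smallest p stood at −0.18, −0.30, −0.13 and −0.43 in FLX, against 0.49, 0.18, 0.30 and 0.075 in SUN. No FLX value reached the lowest SUN value, and the difference was −0.52 ± 0.10. All 10 other MYL6 probes were negative, from −0.51 to −0.30, and over its 11 probes the gene stood at −0.42 ± 0.19 (1.34-fold lower). CMTM8, a membrane protein linked to turnover of the EGF receptor, stood at −0.38, −0.34, −0.33 and −0.13 in FLX, against 0.075, 0.17, 0.10 and 0.29 in SUN. Here too the groups did not overlap, and the difference was −0.46 ± 0.04.

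The other lower probes differed in how far further probes of their gene went with them. ALDH3A2, which oxidises long-chain fatty aldehydes, stood at −0.46 ± 0.08, with its other 3 probes at −0.46 to −0.014. THEM4, a mitochondrial acyl-CoA thioesterase, stood at −0.65 ± 0.15, but at −1.18 on arrays with CAN in Cy3 against −0.11 with CAN in Cy5. Its other 2 probes stood at −0.15 and −0.065. SORL1, a sorting receptor of the endosome and Golgi, stood at −0.53 ± 0.12, its other 2 probes at −0.53 and −0.41. VAV3 stood at −0.57 ± 0.08, and TACC2, a centrosomal protein, at −0.68 ± 0.16. ENDOD1 stood at −0.62 ± 0.06, but its other probe at −0.0064. RNF181, a ubiquitin ligase, stood at −0.57 ± 0.13, its other probe at −0.33. SLC66A3 stood at −0.57 ± 0.14, its other 2 probes at −0.84 and −0.68. SH3BGRL stood at −0.49 ± 0.11, its other 2 probes at −0.27 and −0.024. NIPSNAP3A stood at −0.53 ± 0.15, but its other 3 probes between −0.0044 and 0.00016. For every probe in this paragraph the FLX and SUN values overlapped, although all 4 paired differences were negative. SH3BGRL was at 1.71 in FLX replicate 2 and 2.11 in SUN replicate 2, against −1.08 and −0.69 in replicates 3.

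**Figure D2:**
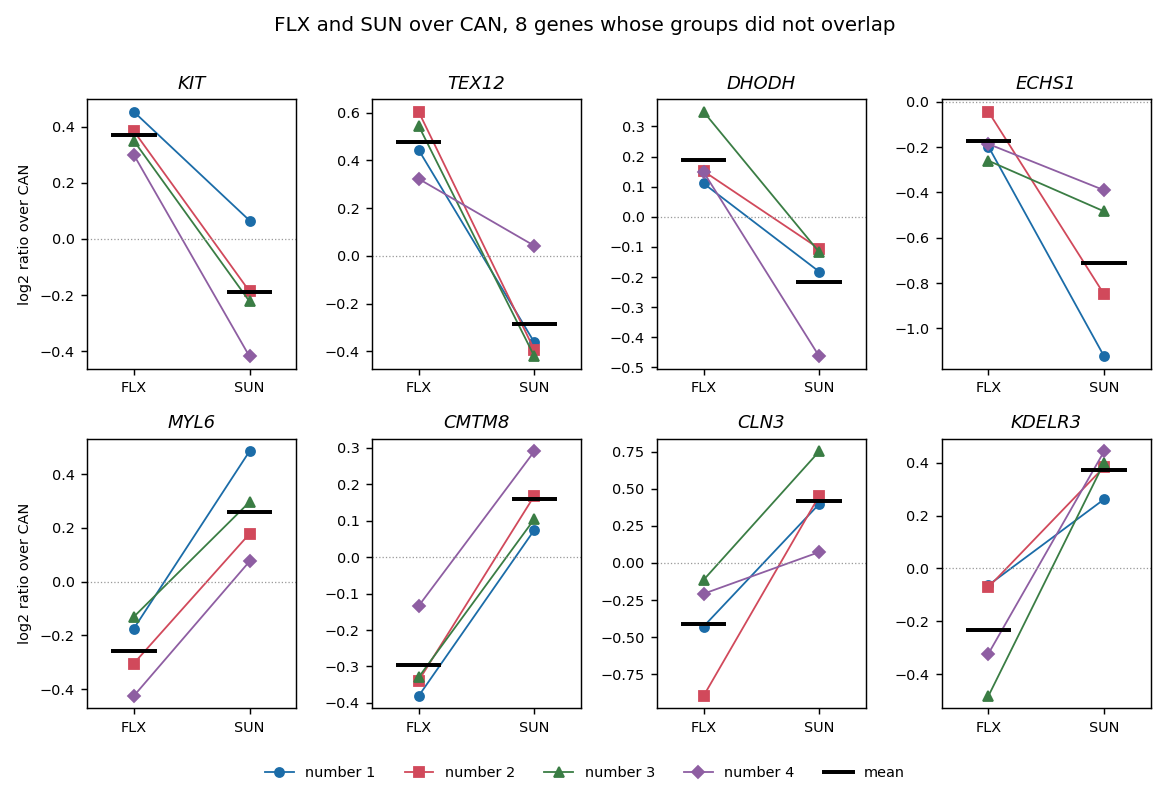
Log2 ratio over CAN (y axis) of 8 genes in the 4 FLX replicates (left) and the 4 SUN replicates (right) of each panel. Each line joins the replicates of 1 number, and black bars are means of 4. KIT, TEX12, MYL6 and CMTM8 are single probes and the others are gene means. In every panel the 2 groups do not overlap, as for 0.946% (FLX above) and 0.9% (FLX below) of all genes.

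From the 1946 genes measured by 3 or more probes, 16 were named by the same kind of choice, and all had an adjusted p of 0.840 in limma. On the higher side were ZMYM1 at 0.59 ± 0.28 (all 3 probes positive, 0.45 to 0.79), CAPN2, a calcium-dependent protease, at 0.39 ± 0.30 (0.26 to 0.46), and RND3 at 0.39 ± 0.24. GJB5, a connexin of trophoblast gap junctions in the mouse, stood at 0.29 ± 0.16, RRM2, the small subunit of ribonucleotide reductase, at 0.29 ± 0.20, FCHSD2 at 0.27 ± 0.16 and GOLM2 at 0.21 ± 0.07. CAPN2 was at 0.47, 0.14, 0.024 and 0.051 in FLX, against 0.005, −0.62, −0.025 and −0.25 in SUN, so that its groups just separated.

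On the lower side were MYL6 above and 7 further genes. CTNS, the lysosomal cystine exporter, stood at −0.49 ± 0.20 with all 4 probes negative (−1.12 to −0.11). M6PR, which carries hydrolases to the lysosome, stood at −0.28 ± 0.03, SLC66A3 at −0.70 ± 0.28 and GPAT3, which starts glycerolipid synthesis, at −0.56 ± 0.31. M6PR was at −0.46 with CAN in Cy3 and −0.096 with CAN in Cy5, with its 3 probes between −0.59 and −0.099. PCNA, the sliding clamp of DNA polymerase, was at −0.34, 0.26, −0.0019 and 0.055 in FLX, against 0.029, 0.60, 0.26 and 0.33 in SUN. Its groups overlapped, but each number gave a like difference, −0.31 ± 0.05, with all 4 probes negative (−0.57 to −0.19). STMN1, a microtubule destabiliser, stood at −0.58 ± 0.35 and CLEC4E, a lectin receptor of myeloid cells, at −0.35 ± 0.14.

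Genes whose FLX and SUN values did not overlap were led, on the lower side, by the transcription factors ZNF219 and LHX2. ZNF219 stood at −0.58, −0.30, −0.43 and −0.27 in FLX, against 0.68, 0.95, −0.26 and 0.69 in SUN (difference −0.91 ± 0.52, 1.88-fold lower). The groups separated narrowly, with SUN replicate 3 just above FLX replicate 4. LHX2 stood at −0.87 ± 0.64, with FLX replicate 2 lowest at −1.30 and all 4 SUN values between 0.26 and 0.49. CLN3, a lysosomal membrane protein, was at −0.43, −0.90, −0.11 and −0.21 in FLX, against 0.40, 0.45, 0.75 and 0.073 in SUN (−0.83 ± 0.44). FLVCR2, a choline transporter, stood at −0.75 ± 0.46, but at −1.22 with CAN in Cy3 and −0.28 with CAN in Cy5. KDELR3, which returns proteins to the endoplasmic reticulum, stood at −0.61 ± 0.26.

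On the higher side ECHS1 (chromosome 26), which hydrates enoyl-CoA in mitochondrial fatty acid breakdown, was at −0.20, −0.044, −0.26 and −0.19 in FLX, against −1.12, −0.85, −0.48 and −0.39 in SUN. Both diets were below CAN at every number, SUN further, and the difference was 0.54 ± 0.38. That difference was 0.26 with CAN in Cy3 and 0.82 with CAN in Cy5. DHODH, the mitochondrial enzyme of pyrimidine synthesis, was at 0.11, 0.15, 0.35 and 0.15 in FLX, against −0.18, −0.11, −0.12 and −0.46 in SUN (0.41 ± 0.16). FLX was above CAN and SUN below it in all 4 replicates. SLC38A3, a glutamine transporter, stood at 0.47 ± 0.24, DDX51, an RNA helicase of ribosome assembly, at 0.41 ± 0.33 and TBRG4, a regulator of mitochondrial RNA, at 0.41 ± 0.27. Each of these 10 genes had 1 probe and an adjusted p of 0.840.

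The question behind the comparison bears first on fatty acid genes. In 30 lists of genes by function or cell type, 785 genes were measured. Of these, 69 had an unadjusted p under 0.05 (8.79%, against 5.61% of all genes), 12 higher and 57 lower in FLX. Over all genes 2.06% were higher and 3.54% lower at that p, and 51.1% had a negative difference. These are the shares to set beside the counts of each list. None of the list genes passed the FDR. The lists were chosen with earlier results of these data known, so they were described and not tested. List medians were negative for 21 of 30 lists, but many lay near 0: 20 of 30 kept their sign with CAN in Cy3 only, and 21 without number 2.

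Desaturases and elongases, which make long polyunsaturated fatty acids, gave 10 of 17 measured genes with a negative difference, against 51.1% of all genes, and a median of −0.10 (−0.040 without number 2). Under an unadjusted p of 0.05 there were 0 higher and 3 lower, FADS2, ELOVL1 and HACD2. FADS2, the Δ6 desaturase, was at −0.81, −0.49, −0.92 and −0.038 in FLX, against 0.20, 1.19, −0.76 and 0.60 in SUN. FLX was lower at all 4 numbers, by 1.01, 1.68, 0.17 and 0.64, with a mean of −0.87 ± 0.64 (1.83-fold lower, adjusted p = 0.840). The groups overlapped through SUN replicate 3, the 1 SUN value below CAN. FADS1, the Δ5 desaturase that acts after it, went the other way at 0.17 ± 0.33, and FADS3 stood at −0.19 ± 0.44. FADS1, FADS3, SCD and other list members outside the 4 of smallest p per list were chosen after their values were seen.

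ELOVL1, an elongase of very long saturated chains, was at −0.87, 0.14, −0.75 and 0.25 in FLX, against 0.68, 1.28, −0.37 and 0.39 in SUN (−0.80 ± 0.66). FLX was again lower at every number, most at numbers 1 and 2, but the difference was −1.34 with CAN in Cy3 against −0.26 with CAN in Cy5. HACD2 and HACD3 are dehydratases of the same elongation step: HACD2 stood at −0.33 ± 0.32 and HACD3 at 0.41 ± 0.46, with number 1 far above the rest (1.09). SCD and SCD5, the stearoyl-CoA desaturases that make oleate, stood at −0.38 ± 0.98 and −0.54 ± 0.66. SCD was at −1.01, −1.28, 0.87 and −0.073 for numbers 1 to 4, so that number 3 ran against the others. ELOVL5, which lengthens polyunsaturated chains, stood at −0.067 ± 0.11 and ELOVL2, which acts on longer ones, at −0.15 ± 0.31.

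Cholesterol synthesis had the most negative median of the 30 lists, with 17 of 19 measured genes negative, a median of −0.31, and 0 higher and 3 lower at an unadjusted p under 0.05. By number the median was −0.50, −0.60, 0.035 and −0.22. The list medians over CAN were −0.098, −0.078, −0.062 and 0.017 in FLX, against 0.43, 0.48, −0.20 and 0.23 in SUN. FLX medians lay near CAN throughout, while SUN medians were above CAN in 3 replicates and below it in SUN replicate 3. EBP, the sterol isomerase, stood at −0.23, −0.28, −0.47 and −0.15 in FLX, against 0.47, 0.45, −0.30 and 0.36 in SUN, lower in FLX at all 4 numbers. HSD17B7, a ketosteroid reductase of the same pathway, stood at −0.40 ± 0.25 and NSDHL, which removes a methyl group from the sterol ring, at −0.22 ± 0.20. Both were lower at all 4 numbers.

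Other members changed sign between numbers. CYP51A1, the lanosterol demethylase, was at −1.52, −1.92, 0.98 and −0.79 for numbers 1 to 4, and HMGCS1, which condenses the first units, at −1.06, −0.81, 0.53 and −0.25. The list median was −0.18 without number 1, −0.17 without number 2, −0.40 without number 3 and −0.27 without number 4. Within slides 1 and 3 (numbers 1 and 2) it was −0.50, and within slides 2 and 4 (numbers 3 and 4) −0.0060, an addition made after seeing the data. Arrays with CAN in Cy3 gave −0.18, and those with CAN in Cy5 gave −0.34. Sterol regulation and uptake showed no like shift, with 10 of 17 negative and a median of −0.023. MBTPS2, the protease that releases SREBP, stood at −0.36 ± 0.18 and was lower at all 4 numbers. NPC2, which passes cholesterol out of lysosomes, stood at −0.18 ± 0.26, INSIG2, which retains SREBP, at −0.13 ± 0.19 and SOAT1, which esterifies cholesterol, at 0.12 ± 0.17. SREBF1 and SREBF2, which encode the SREBPs, stood at −0.11 ± 0.39 and −0.023 ± 0.22.

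**Figure D3:**
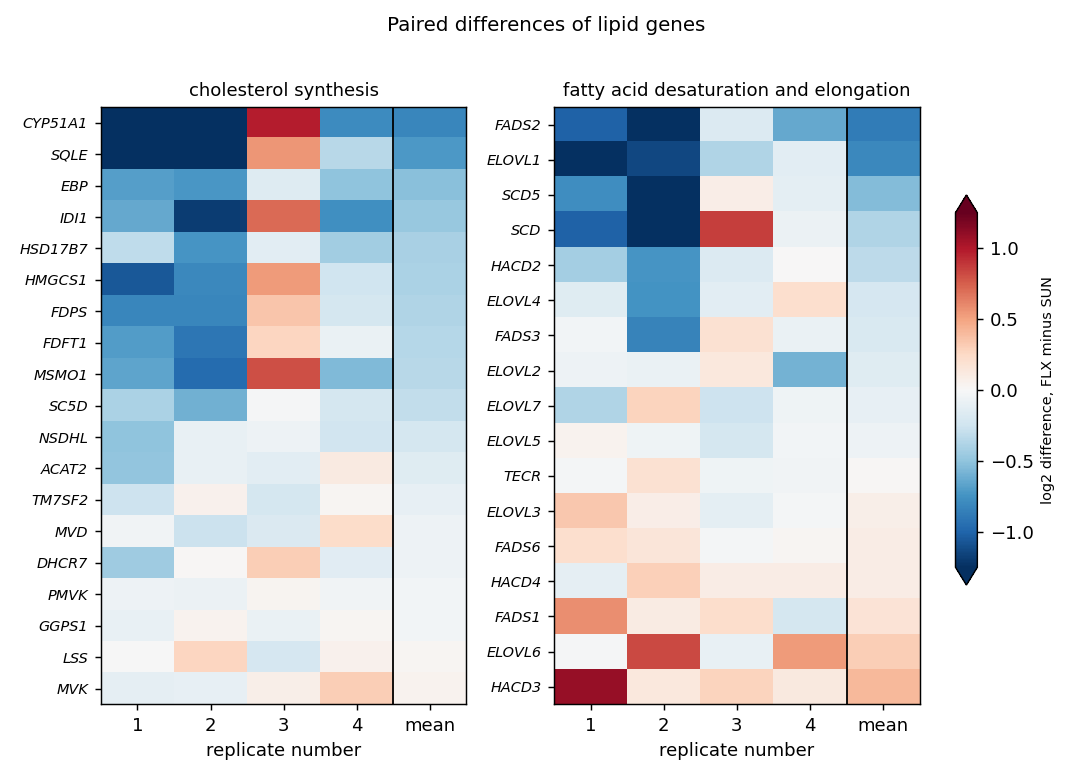
Log2 difference, FLX minus SUN (colour; blue lower and red higher in FLX, values beyond the scale at its end colours), of the measured genes of 2 lipid lists (rows) for replicate numbers 1 to 4 and their mean (columns). Cholesterol synthesis is blue at numbers 1, 2 and 4 for most genes and partly red at number 3, where its median is 0.035. FADS2 and ELOVL1 are blue at all 4 numbers.

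Storage, uptake and breakdown of fatty acids gave smaller medians. In triglyceride and lipid droplet genes 17 of 26 were negative (median −0.044, negative at all 4 numbers), with 3 lower and 0 higher at an unadjusted p under 0.05. AGPAT2, the second acyltransferase of glycerolipid synthesis, was at −0.019, −0.71, −0.44 and 0.055 in FLX, against 0.37, −0.053, −0.061 and 0.26 in SUN (−0.40 ± 0.19). ABHD5 activates PNPLA2, the adipose triglyceride lipase. ABHD5 stood at −0.31 ± 0.14 with all 3 probes negative, and PNPLA2 at −0.28 ± 0.22. All 3 were lower at all 4 numbers, while DGAT1 and DGAT2, which add the last acyl chain, stood at −0.17 ± 0.17 and 0.17 ± 0.44. LPIN2, a phosphatidate phosphatase, stood at 0.17 ± 0.16.

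Fatty acid uptake and activation had a median of −0.0030 (14 of 26 negative, 1 higher and 2 lower at an unadjusted p under 0.05). FABP5, a fatty acid carrier, was at −0.43, 0.082, −1.27 and −0.10 in FLX, against 0.29, 1.07, −1.07 and 0.38 in SUN (−0.60 ± 0.33). FLX was lower at each number, and SUN replicate 3 lay below 3 of the FLX values. The FABP5 difference was −0.91 with CAN in Cy3 and −0.28 with CAN in Cy5. ACSL6, an acyl-CoA synthetase with a preference for polyunsaturated chains, stood at −0.44 ± 0.41, FABP7 at 0.23 ± 0.20 and FABP1 at 0.39 ± 0.51, the last 2 highest at number 1. De novo lipogenesis had 11 of 14 negative and a median of −0.065, with none under an unadjusted p of 0.05. By number its median was −0.17, −0.14, 0.10 and 0.011, and within slides 2 and 4 it was 0.038. ACACB, the acetyl-CoA carboxylase at mitochondria, separated the groups by little, at −0.11 ± 0.06. ACSS2 stood at −0.13 ± 0.17, CBR4 at −0.14 ± 0.25, OXSM at −0.14 ± 0.31 and FASN, the fatty acid synthase, at −0.0011 ± 0.32.

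Fatty acid oxidation showed no common direction: 15 of 26 were positive, against 48.9% of all genes, the median of 0.025 turned to −0.0095 without number 4, and there was 1 higher and 0 lower at an unadjusted p under 0.05, ECHS1 above. ACADM, the medium-chain acyl-CoA dehydrogenase, stood at 0.21 ± 0.22 with all 3 probes positive (0.11 to 0.35), and ACOX3, a peroxisomal oxidase, at 0.22 ± 0.22. OXCT1, which activates ketone bodies, stood at −0.14 ± 0.12, and CPT1A, the gate of mitochondrial entry, at 0.075 ± 0.26.

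Eicosanoid genes, which use arachidonic acid, had 17 of 30 negative and a median of −0.033, with 1 higher and 3 lower at an unadjusted p under 0.05. ALOX5, the lipoxygenase that starts leukotriene synthesis, was at 0.069, −0.027, −0.27 and −0.13 in FLX, against 0.38, 0.55, −0.072 and 0.032 in SUN (−0.31 ± 0.19). AKR1B1, a reductase that can form prostaglandin F in cattle, stood at −0.66 ± 0.68, with number 2 at −1.67 and the others between −0.38 and −0.25. Both were lower in FLX at all 4 numbers. PTGS2, the inducible cyclooxygenase, did not do so, at −0.46, −1.55, 0.44 and −0.34 for numbers 1 to 4. Receptor differences were smaller: PTGDR, for prostaglandin D, stood at −0.19 ± 0.10 with no overlap, and FFAR1, a receptor of free long-chain fatty acids, at 0.18 ± 0.06.

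In phospholipid remodelling 10 of 21 genes were negative (median 0.011, 1 higher and 1 lower at an unadjusted p under 0.05). PLA2G15, the lysosomal phospholipase, stood at −0.59 ± 0.39, but at −1.01 where CAN was in Cy3 and −0.17 where CAN was in Cy5. LPCAT3, which puts polyunsaturated chains into membrane phospholipids, was at 0.50, 0.18, −0.041 and 0.57 in FLX, against 0.14, −0.021, −0.10 and 0.15 in SUN. It was higher in FLX at all 4 numbers, by 0.26 ± 0.16. CHPT1, which makes phosphatidylcholine, stood at −0.61 ± 0.93 and MBOAT1 at −0.14 ± 0.17. Nuclear receptors of fatty acids showed no shift, with 7 of 14 negative, a median of −0.0021, and 0 higher and 1 lower at an unadjusted p under 0.05. PPARA, PPARD and PPARG stood at 0.087 ± 0.16, 0.089 ± 0.35 and −0.056 ± 0.14. RXRG stood at 0.13 ± 0.23, MED1 at 0.12 ± 0.11, NCOA1 at −0.077 ± 0.069 and HNF4A, also a hypoblast gene, at −0.25 ± 0.16 with its 3 probes between −0.70 and 0.073.

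Trophectoderm markers came next to cholesterol genes in the size of the negative median, −0.14, with 17 of 25 negative and 0 higher and 5 lower at an unadjusted p under 0.05. By number the median was −0.12, −0.31, 0.0032 and −0.069, and −0.097 without number 2. ID2, an inhibitor of basic helix-loop-helix factors, was at −0.38, 0.69, −1.02 and 0.56 in FLX, against 0.89, 1.98, −1.10 and 1.63 in SUN. FLX was lower by over 1 log2 unit at numbers 1, 2 and 4 and level at number 3 (0.083), with a mean of −0.89 ± 0.66. IFNT, interferon tau, was at −1.66, 0.88, −0.29 and −1.79 in FLX, against −0.33, 1.99, 0.85 and −1.98 in SUN. FLX was lower by over 1 log2 unit at numbers 1 to 3 and higher at number 4 (0.19), and the mean was −0.85 ± 0.70.

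PAG2, a pregnancy-associated glycoprotein, was at 0.97, −0.75, −0.77 and −0.84 in FLX, against 0.81, 1.68, 0.16 and 0.76 in SUN (−1.20 ± 1.10, 2.30-fold lower). Here FLX replicate 1 was the exception. PLAC8, a gene of the trophectoderm and the receptive endometrium, stood at −0.39 ± 0.38, and KRT8, a keratin of simple epithelia, also had an unadjusted p under 0.05, at −0.39 ± 0.39. Both were lower at all 4 numbers. Differences of transcription factors that specify the lineage were smaller: CDX2 stood at −0.24 ± 0.34, GATA3 at 0.0047 ± 0.27, TFAP2C at −0.018 ± 0.34, EOMES at 0.050 ± 0.090 and TEAD4 at −0.050 ± 0.14. In bulk embryos fewer cells of a type and less RNA per cell cannot be told apart.

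For inner cell mass and epiblast genes 12 of 17 differences were positive, the median being 0.057 (−0.00077 without number 2 and −0.012 with CAN in Cy3 only), with 1 lower at an unadjusted p under 0.05. That gene was NANOG, at −2.19, 2.63, −1.11 and 1.82 in FLX, against 0.35, 5.34, −0.30 and 1.51 in SUN. Its mean of −1.44 ± 1.45 came from values that ran from −2.19 in FLX replicate 1 to 5.34 in SUN replicate 2. The other core factors stood close to 0: POU5F1 at 0.0013 ± 0.24 and SOX2 at 0.069 ± 0.25. DPPA4 was higher at all 4 numbers (0.15 ± 0.08), but at 0.0079 with CAN in Cy3 and 0.30 with CAN in Cy5. DNMT3B, a DNA methyltransferase, and OTX2 stood at −0.59 ± 1.01 and 0.42 ± 0.72.

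For hypoblast genes 11 of 20 differences were positive (median 0.016, but −0.051 without number 4), with 0 higher and 2 lower at an unadjusted p under 0.05. LAMA1, the laminin chain of the first basement membrane, was at 0.52, −1.36, −1.97 and 0.30 in FLX, against 1.10, 0.33, −1.23 and 0.55 in SUN (−0.82 ± 0.62). It was lower at all 4 numbers, and so was HNF4A above. TTR and NID2 stood at 0.22 ± 0.23 and 0.14 ± 0.15, and the lineage factors GATA4 and SOX17 at 0.14 ± 0.44 and 0.016 ± 0.079.

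**Figure D4:**
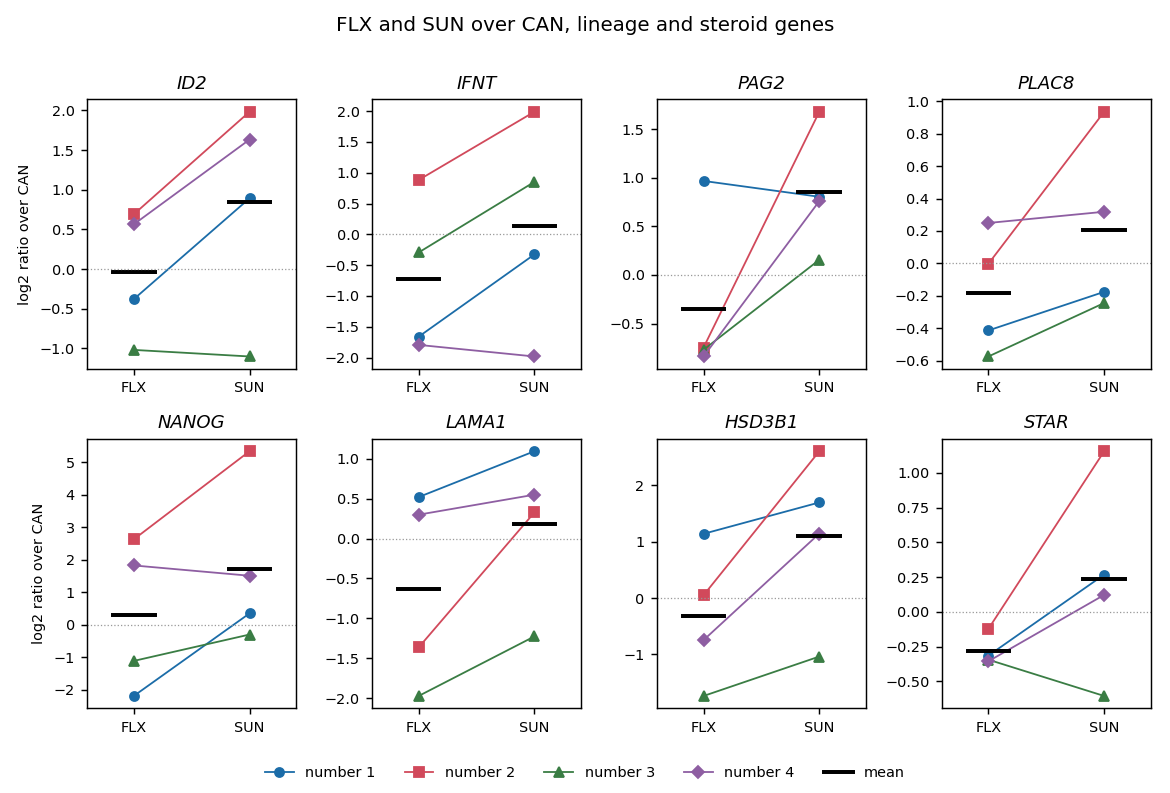
Log2 ratio over CAN (y axis) of 8 genes of the trophectoderm (ID2, IFNT, PAG2, PLAC8), epiblast (NANOG), hypoblast (LAMA1) and steroid synthesis (HSD3B1, STAR) in the 4 FLX replicates (left) and 4 SUN replicates (right) of each panel. Lines join replicates of 1 number and bars are means of 4. Means are lower in FLX in all 8 panels, and the groups overlap in each.

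Genes that seal the epithelium and fill the blastocoel had 15 of 29 negative (median −0.037, but 0.013 without number 2 and 0.066 with CAN in Cy5 only, 0 higher and 3 lower at an unadjusted p under 0.05). CLDN4, a tight junction claudin, was at −0.094, 0.71, −1.42 and 0.18 in FLX, against 0.16, 1.62, −0.43 and 0.86 in SUN (−0.71 ± 0.33). Its difference was −1.09 with CAN in Cy3 and −0.32 with CAN in Cy5. CLDN6 separated the groups in a narrow band, at −0.11, −0.20, −0.10 and −0.20 in FLX, against 0.19, 0.17, 0.28 and 0.13 in SUN (−0.34 ± 0.04). That difference rested on 1 dye orientation: it was −0.74 where CAN was in Cy3 and 0.052 where CAN was in Cy5. ATP1B3, a subunit of the sodium pump, stood at −0.21 ± 0.16 with all 3 probes negative and TJP1, a junction scaffold, at −0.26 ± 0.26.

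Heat shock and unfolded protein genes had 22 of 31 negative, a median of −0.12, and 0 higher and 5 lower at an unadjusted p under 0.05. By number the median was −0.19, −0.40, 0.067 and −0.081, and −0.038 without number 2. XBP1, the transcription factor of the unfolded protein response, was at −0.26, 0.65, −0.29 and −0.59 in FLX, against 0.72, 2.22, −0.27 and −0.067 in SUN (−0.77 ± 0.66). SUN replicate 2 was far above the rest. HSPA1A, HSPH1 and HSP90AA1, all cytosolic chaperones, stood at −0.35 ± 0.31, −0.34 ± 0.28 and −0.34 ± 0.30, and P4HB, a disulphide isomerase, at −0.26 ± 0.23. HSPA5, the chaperone of the endoplasmic reticulum, was at −0.17, −1.54, 0.49 and −0.59 for numbers 1 to 4.

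Glycolysis and pentose phosphate genes had 18 of 25 negative and a median of −0.090 (−0.038 without number 2, 0.028 within slides 2 and 4 and 0.098 at number 4), with 1 higher and 4 lower at an unadjusted p under 0.05. PFKL, the liver phosphofructokinase, stood at −0.40 ± 0.17, SLC2A1, the basal glucose transporter, at −0.43 ± 0.20 and LDHA, a lactate dehydrogenase, at −0.32 ± 0.21. Each was lower in FLX at all 4 numbers, while RPE of the pentose phosphate pathway was higher at all 4 (0.24 ± 0.14). SLC2A1 was at −0.69 with CAN in Cy3 and −0.16 with CAN in Cy5. Antioxidant genes had 20 of 28 negative (median −0.065, 0 higher and 3 lower). HMOX1, a haem oxygenase, stood at −0.57 ± 0.56, GPX1, a glutathione peroxidase, at −0.43 ± 0.46, TXN, thioredoxin, at −0.32 ± 0.33 and PRDX2, a peroxiredoxin, at −0.28 ± 0.29. GPX1 and PRDX2 turned sign with CAN in Cy5 only, to 0.048 and 0.076.

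Cytosolic ribosomal proteins had 47 of 63 negative, against 51.1% of all genes, with a median of −0.083. At an unadjusted p under 0.05 there were 0 higher and 5 lower (7.94%, against 5.61% of all genes). By number the median was −0.13, −0.16, −0.14 and 0.13, so that number 4 ran against the rest. Arrays with CAN in Cy3 gave −0.22 and those with CAN in Cy5 gave 0.044, and RPL36 and RPS2 turned with it. RPL36 stood at −0.42 ± 0.39, RPS2 at −0.24 ± 0.15, RPS27 at −0.33 ± 0.29 and RPS3 at −0.18 ± 0.08. Oxidative phosphorylation had 44 of 73 negative (median −0.042, but 0.016 without number 3). At an unadjusted p under 0.05 there were 1 higher and 4 lower (6.85%, against 5.61% of all genes). SDHB, the iron-sulphur subunit of complex II, stood at −0.30 ± 0.17, COX5B of complex IV at −0.45 ± 0.45, NDUFV3 of complex I at −0.22 ± 0.16 and ATP5ME of the ATP synthase at −0.36 ± 0.22. All 4 were lower in FLX at every number, but SDHB was at −0.59 with CAN in Cy3 and −0.0079 with CAN in Cy5, and COX5B at −0.81 and −0.099.

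Lists of regulation and turnover lay near the all-gene median. The proteasome list had a median of −0.020, with 1 higher and 1 lower at an unadjusted p under 0.05 (6.67%, against 5.61% of all genes). Its 2 genes without overlap pointed opposite ways: PSMC1, an ATPase of the cap, at 0.39 ± 0.21 and PSMB2, a core subunit, at −0.37 ± 0.27. PSMD6 and PSMD2 stood at −0.15 ± 0.07 and −0.22 ± 0.26. Of the cell cycle genes 26 of 44 were positive (median 0.031, 2 higher and 1 lower, 6.82%). Among them were RRM2 and PCNA above, LIG1, a DNA ligase, at 0.36 ± 0.33 and CCND3 at 0.25 ± 0.26. Apoptosis genes had a median of −0.019 and none under an unadjusted p of 0.05; BIRC5 stood at 0.23 ± 0.23, CASP9 at −0.18 ± 0.14, FAS at −0.19 ± 0.17 and CASP8 at −0.17 ± 0.14.

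DNA methylation and imprinted genes had 21 of 26 negative, a median of −0.039, and 1 higher and 0 lower, the imprinted NDN at 0.38 ± 0.42. DNMT3A, a de novo methyltransferase, stood at −0.54 ± 0.71 with all 3 probes negative, UHRF1, which recruits DNMT1, at −0.18 ± 0.18 and TET3, the dioxygenase of the zygote, at 0.42 ± 0.69. Interferon-stimulated genes had a median of −0.010 (0 higher and 2 lower). RSAD2 separated the groups, at 0.046, 0.055, −0.14 and −0.038 in FLX, against 0.076, 0.34, 0.066 and 0.34 in SUN (−0.22 ± 0.15). IFIT2, IFIT5 and IRF9 stood at −0.21 ± 0.14, −0.15 ± 0.02 and −0.14 ± 0.11. IFIT5 was at −0.025 with CAN in Cy3 and −0.28 with CAN in Cy5, and its 2 probes at −0.26 and −0.044. Growth factor genes had a median of 0.0059 (2 higher and 1 lower, 7.9% against 5.61% of all genes). Among them were KIT above, HBEGF at 0.22 ± 0.17, FGFR4 at 0.19 ± 0.20 and ERBB3 at −0.55 ± 0.50.

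Cells other than those of the embryo may come with a flush, and their markers were set beside these results. Cumulus and granulosa genes had 13 of 19 negative, a median of −0.089, negative at all 4 numbers (−0.11, −0.057, −0.083 and −0.041), and 0 higher and 3 lower at an unadjusted p under 0.05. Their list medians over CAN ran from −0.11 to 0.030 in FLX and from 0.020 to 0.11 in SUN. HSD3B1, which makes progesterone from pregnenolone, was at 1.14, 0.051, −1.74 and −0.75 in FLX, against 1.70, 2.61, −1.04 and 1.15 in SUN (−1.43 ± 0.96, 2.69-fold lower). STAR, which brings cholesterol into mitochondria for steroid synthesis, stood at −0.52 ± 0.63. FSHR and TNFAIP6 stood at −0.26 ± 0.24 and −0.28 ± 0.22, while CYP19A1, AMH and INHA, which also mark granulosa cells, stood at −0.089 ± 0.091, −0.072 ± 0.13 and 0.011 ± 0.11. The part of such cells in the trophectoderm and cholesterol differences was not tested.

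Blood cell genes had a median of 0.027 (CD14 at 0.15 ± 0.08, CD74 at 0.12 ± 0.13, S100A12 at −0.13 ± 0.18, PTPRC at 0.19 ± 0.33), with none under an unadjusted p of 0.05. The same held for uterine epithelium, with a median of −0.0097 (FOLR1 at −0.30 ± 0.40, MUC1 at −0.16 ± 0.28, ESR1 at 0.10 ± 0.11, OVGP1 at −0.071 ± 0.18), and for oocyte and maternal genes, with a median of 0.026 (ZAR1 at 0.15 ± 0.17, ZP4 at −0.17 ± 0.23, BMP15 at 0.087 ± 0.11, DAZL at 0.066 ± 0.020). Spermatozoa genes had a median of 0.045 with 1 lower, TNP1 at −0.53 ± 0.48, beside PRM2 at 0.18 ± 0.13, SPATA18 at 0.23 ± 0.24 and SMCP at 0.19 ± 0.17.

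**Figure D5:**
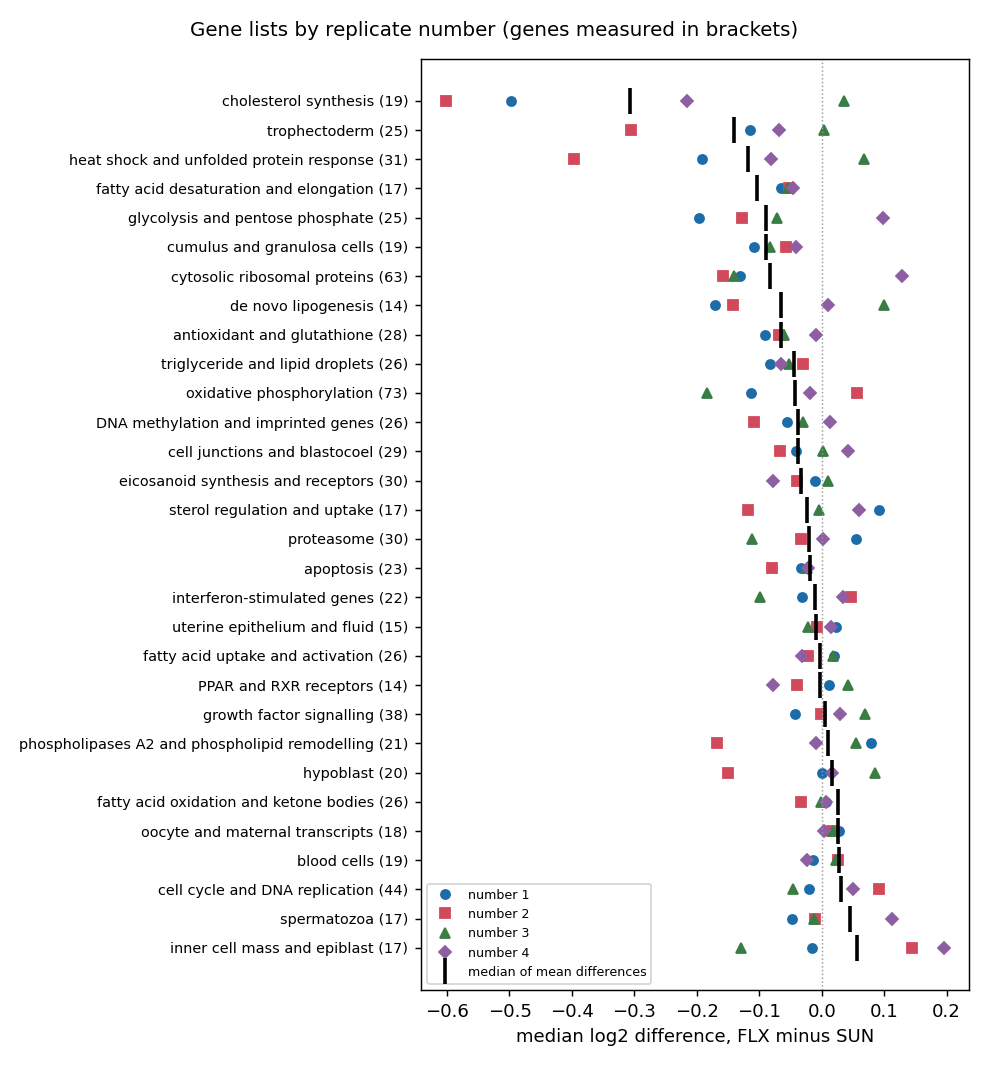
Median log2 difference, FLX minus SUN (x axis), of the 30 gene lists (rows, with the number of genes measured in brackets). Symbols are the medians for replicate numbers 1 to 4 and black bars the median of the members' mean differences. Cholesterol synthesis (−0.31), trophectoderm (−0.14) and heat shock genes (−0.12) stand furthest to the left, and each has number 3 at or right of 0.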

How the data were processed

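The series matrix held 1 value per probe and array, log2 ratios of the 2 dyes as deposited by the authors. The normalization, scaling and centring behind them, and the base of the logarithm, are not given in the sources used here. Array medians ran from −0.0139 to 0.00947 and SDs from 0.233 to 0.435. Signal over background is unknown, and precision is limited by how many arrays there are.

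Of 43794 probes, 21790 had 1 gene symbol, 0 had several and 22004 had none. A gene's value is the mean of its probes. The 4 paired differences were tested against 0 with limma 3.58.1 in R 4.3.3 (lmFit and eBayes, two-sided, Benjamini-Hochberg FDR of 0.05 over all probes or genes), and the code was tested on simulated data. Same-numbered replicates correlated at 0.41 or more in their deviations, so the number was kept as a block. It comes from the sample names.

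Named were the 12 probes per side of smallest p with 4 paired differences of 1 sign, the 8 genes per side with at least 3 probes, the 5 genes per side of largest difference without overlap, and the 4 genes of smallest p per list. The comparison, the genes and the lists were chosen with earlier results of these data known. Alternatives left out the block, each replicate or 1 dye orientation, took slides as random blocks, or rescaled the arrays.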

Additional observations from a re-analysis of the deposited data

Results flagged for a closer look

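In 195 groups of 4 paired differences, 8 held 1 number far from the other 3, and chance gives about 1 in 20 such groups. Number 1 stood apart for HACD3, at 1.09 against 0.127 to 0.279 at the others, for FABP7, at 0.532 against 0.116 to 0.14, and for TTR, at 0.559 against 0.0493 to 0.130. Number 2 stood apart for AKR1B1, at −1.67 against −0.378 to −0.250. Number 3 stood apart for ACSL6, at 0.167 against −0.684 to −0.611, and for ID2, at 0.0831 against −1.29 to −1.07. Number 4 stood apart for IFNT, at 0.188 against −1.34 to −1.11, and for the median of the cytosolic ribosomal proteins, at 0.128 against −0.158 to −0.131. In ACSL6, ID2, IFNT and the ribosomal median the sign of the number that stood apart was opposite to that of the other 3.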

How the results depend on the processing

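No probe or gene passed the FDR under any setting run, except 2 probes without number 2 (range 0 to 2 when 1 number was left out). Without the replicate block, which ignores the pairing by number, 949 probes (34 at 1.5-fold) and 318 genes had an unadjusted p under 0.05, and with slide as a random block in place of it 1437 (45) and 443. With CAN in Cy3 only there were 4526 probes (749) and 1676 genes, and with CAN in Cy5 only 3555 (366) and 1307. Leaving out 1 number gave 1465 to 2970 probes (102 to 544 at 1.5-fold) and 553 to 1140 genes, each lowest without number 2 and highest without number 3, or without number 4 at 1.5-fold. Without number 4 the 1.5-fold counts were 302 higher and 242 lower in FLX for probes and 86 higher and 102 lower for genes, against 26 and 143, and 7 and 58, with all numbers. Of 30 list medians, 20 kept their sign with CAN in Cy3 only (11 moved by over 1 SD), 22 with CAN in Cy5 only and 21 without number 2 and within each slide pair. Among list genes the lower count was 11 without the replicate block, 16 with slide as a random block besides, 105 with CAN in Cy3 only and 35 to 86 with 1 number left out. The higher count was 5, 5, 29 and 9 to 21 under the same settings, 23 with the slide pair as a random block and 36 with CAN in Cy5 only. With CAN in Cy5 only the sign turned for NPC2 (0.147), FABP7 (−0.0385), MED1 (−0.0447), RPL36 (0.0712), RPS2 (0.0214), GPX1 (0.0481), PRDX2 (0.0764), PSMD2 (0.0332), CLDN6 (0.0521), FOLR1 (0.0208) and MUC1 (0.153). With CAN in Cy3 only it turned for INSIG2 (0.0804), NCOA1 (0.106), CASP8 (0.0477), IRF9 (0.0655) and CD74 (−0.0766), without replicate 4 for OXSM (−0.218 to 0.00245 over the 4 numbers left out) and without replicate 2 for OVGP1 (−0.14 to 0.00608). The cause was not tested. The other 147 of 165 named results kept their sign under every setting run, but part of this was fixed in advance. For results chosen by 1 shared sign or by no overlap, leaving out a number could not turn the sign. Settings that only changed the block left the mean difference as it was.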

Other observations

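The 2 probes that passed the FDR without number 2 have no gene symbol and were singled out after their values were seen. The first differed by −1.99, −2.01 and −1.96 at numbers 1, 3 and 4 and by 1.87 at number 2, and the second by −2.47, −2.27 and −2.36 against 2.14 (limma, adjusted p = 0.0282 each without number 2).

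Of 15 Y-linked genes, a list added after seeing the data, 5 were measured, with a median of −0.027 and medians of 0.11, −0.027, −0.048 and −0.26 at numbers 1 to 4. The 568 genes on chromosome X had a median of −0.015.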
